A study of Drosophila melanogaster with 6 samples.

Results

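The 9 genes described here encode the fly's DNA damage checkpoint kinases and proteins that bind or join double-strand breaks: tefu, mei-41, grp, lok, mre11, rad50, nbs, Ku80 and Irbp. They are 9 of 10 genes chosen by name, all matched by symbol to a FlyBase identifier among the 14150 genes of the deposited count table. Messenger RNA was sequenced from brains of female Drosophila melanogaster late L3 larvae, 96 h after egg laying at 29 °C. CIN larvae carried worniu-gal4 with UAS-bub3-i, which drives RNAi of Bub3, whose protein takes part in the spindle assembly checkpoint. Ctrl larvae carried worniu-gal4 with UAS-gfp-i, which drives RNAi of gfp, a sequence with no natural counterpart in the fly. Both genotypes were in a w background and shared the driver, which is active in neuroblasts, as the brain's stem cells are called. Each genotype had 3 libraries, numbered 4, 5 and 6 after the batch in the labels, and each library pooled 3 brains.

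When a chromosome breaks, the Mre11-Rad50-Nbs complex binds the ends and recruits the kinase ATM, encoded in flies by tefu. Single-stranded DNA at stalled forks or trimmed ends instead activates the kinase ATR, encoded by mei-41. ATM and ATR switch on the effector kinases Chk2 (lok) and Chk1 (grp), which delay the cell cycle or, through p53, trigger cell death. Breaks are joined directly by a route that starts with the Ku heterodimer of Irbp (the fly Ku70) and Ku80, or are repaired by copying an intact sister. These proteins are regulated largely by phosphorylation and recruitment, which RNA levels do not report. In neuroblasts with an impaired spindle checkpoint, missegregated chromosomes are a known source of DNA damage and aneuploidy.

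Totals per library were 24668180 to 26249911 counts in CIN and 24700290 to 26292208 in ctrl. Bub3 measured 80.2, 96.5 and 91.5 CPM in CIN 4, 5 and 6, against 149, 123 and 144 CPM in ctrl 4, 5 and 6, so the groups did not overlap. CPM is a gene's count relative to its library's total, with the total adjusted by TMM for library composition. The log2 fold change of Bub3, -0.63 ± 0.13 (SE), did not pass the test used throughout (adjusted p = 0.333), which is the quasi-likelihood test of edgeR, adjusted by Benjamini and Hochberg's method over 10074 tested genes and read at a threshold of 0.05. It passed in DESeq2 (adjusted p = 0.00811). All 10 neuron markers, all 10 neuroblast markers and all 8 glia markers were detected well enough to be tested. The sums of the neuron list were 1954 to 2963 CPM in CIN and 2079 to 2628 CPM in ctrl. The sums of the glia list were 1348 to 2397 CPM in CIN and 1704 to 1918 CPM in ctrl. Those of the neuroblast list were 1662 to 2910 CPM in CIN and 2207 to 2305 CPM in ctrl, most of it brat. Without brat the other 9 neuroblast markers summed to 393, 555 and 597 CPM in CIN 4, 5 and 6, against 816, 606 and 619 CPM in ctrl 4, 5 and 6. Over all 10 the median log2 fold change was -0.38, with 7 negative, 2 lower at an unadjusted p under 0.05 and 0 called by edgeR. Among all 10074 tested genes, 4904 were negative and 379 lower at that p. Markers of the ring gland, an endocrine organ attached to the brain, varied far more. The sums of its 6 matched markers were 3643, 6.02 and 1129 CPM in CIN 4, 5 and 6, against 2.01, 2585 and 1215 CPM in ctrl 4, 5 and 6. In CIN 5 jhamt had no count. The sums of the 8 blood cell (hemocyte) markers were 108 to 513 CPM in CIN and 104 to 566.5 CPM in ctrl. The 8 germline markers had sums of 41.6 to 56.7 CPM in CIN and 40.4 to 56.4 CPM in ctrl, of which ovo, not restricted to the germline, was the most abundant. Fewer cells of a type and less RNA per cell cannot be told apart in these whole-brain libraries. The genotypes also carry different transgenes, so an effect of the knockdown and a difference between fly stocks cannot be told apart.

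The checkpoint and repair genes were all expressed in these brains, and none passed the test between genotypes. In edgeR 0 of the 9 rose and 0 fell, with adjusted p-values of 0.716 to 0.999, and 0 had an unadjusted p under 0.05. Across all tested genes 0.0993% passed, 0.0496% in each direction, and 7.89% had an unadjusted p under 0.05. DESeq2 and limma-voom also called 0 of the 9, with 0 at an unadjusted p under 0.05 in either tool, where they called 1.07% and 0.0993% of all genes tested. The CPM ranges of the genotypes overlapped for each of the 9 genes and were apart for 15.3% of all tested genes. At that share, 0 of 9 does not set the members apart from other genes. The log2 fold changes ran from -0.05 to 0.28, with a median of 0.0043 against 0.0075 for all tested genes. Each member's 95% interval lay within a 2-fold change in either direction, as it did for 69.5% of all tested genes. The lowest bound was -0.68 for lok and the highest 0.79 for nbs, on the log2 scale. These intervals are for whole-brain RNA and set no bound on a change confined to neuroblasts. With the batch as a replicate block, the intervals of the 9 genes ran from a lowest bound of -0.40 for mei-41 to a highest of 0.65 for Irbp, and the SE was 0.12 in place of 0.27 for lok and 0.14 in place of 0.28 for nbs.

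**Figure D1:**
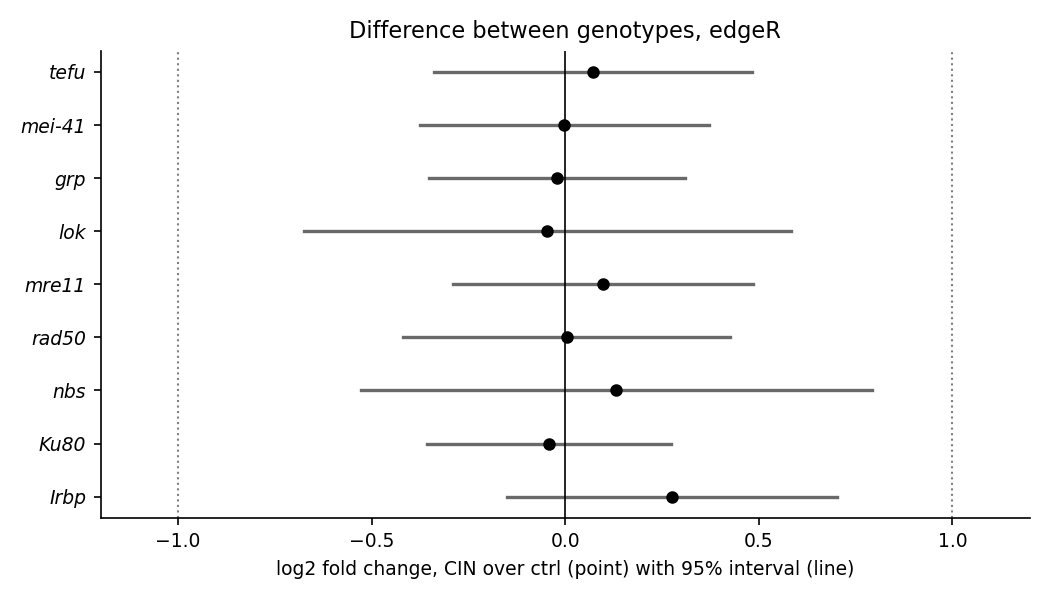
Log2 fold change of CIN over ctrl for the 9 genes (points) with 95% intervals from edgeR (lines). The dotted lines mark a 2-fold change in either direction, and all 9 intervals lie between them and include 0.

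Levels can be compared between genes only per length, here as CPM per kilobase of the union of annotated exons. By this measure grp, the Chk1 kinase gene, stood far above the rest, at 81.4 ± 11.6 in CIN and 82.6 ± 4.34 in ctrl (CPM per kb, SD, n = 3). That placed it at percentile 92.1 of all tested genes. The nuclease gene mre11 came next, at 26.1 ± 0.77 CPM per kb in CIN and 24.4 ± 5.01 in ctrl. Below it lay rad50, lok, Ku80, nbs and Irbp, with means over the 6 libraries of 15.0, 13.5, 10.8, 10.8 and 8.76 CPM per kb, and the 6-library ranges of neighbours in this order overlapped. The lowest were the large kinase genes at the top of the pathway, tefu with a mean of 6.50 and mei-41 with 3.55 CPM per kb, at percentiles 32.7 and 24.0. The 6-library ranges of grp and mre11, of mre11 and rad50, and of tefu and mei-41 did not overlap. Effector kinase transcripts were thus more abundant per length than the sensor kinase transcripts in all 6 libraries, and the order at both ends was the same in both genotypes. The exon unions are 8416 bases for tefu and 7899 for mei-41, against 3049 for grp and 2439 for lok. Whether such lengths affect this measure was not tested.

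**Figure D2:**
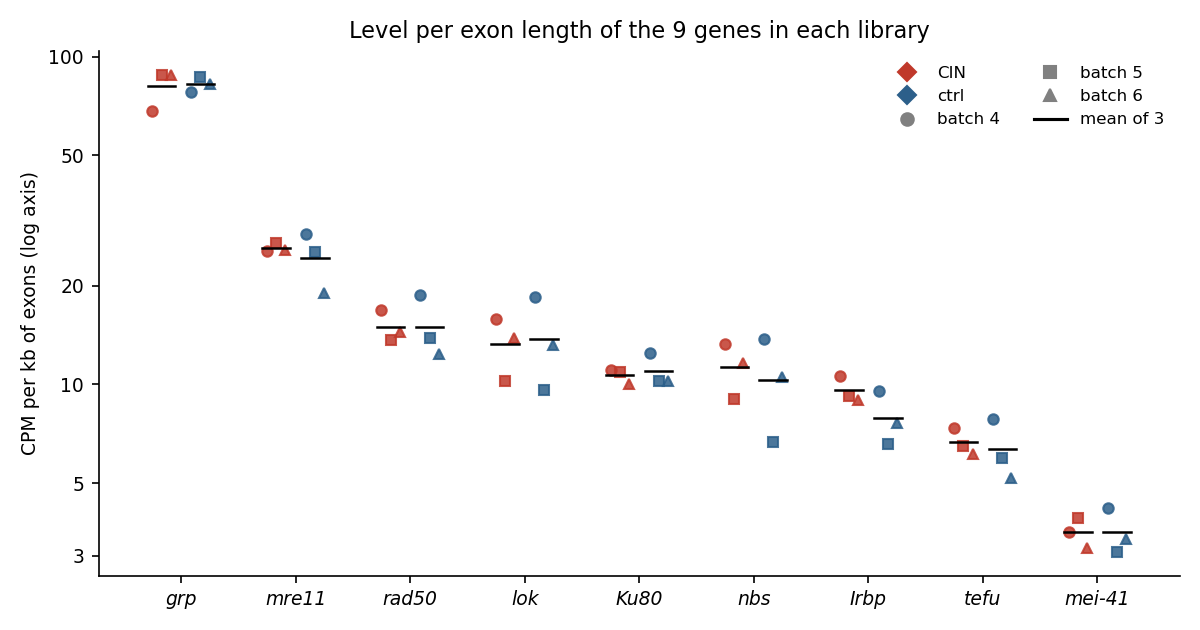
CPM per kilobase of exons on a log axis for the 9 genes in each library, with CIN left of ctrl, symbols for the batch and a bar at the mean of 3 libraries. From left to right the genes run from grp, at 68.0 to 88.1 CPM per kb, to mei-41, at 3.09 to 4.19 CPM per kb.

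Of the sensor kinases, tefu (FBgn0045035, 3R:15232212-15242236, minus strand, in dm6 coordinates like all others here) measured 62.0, 54.6 and 51.6 CPM in CIN 4, 5 and 6, against 66.1, 50.3 and 43.7 CPM in ctrl 4, 5 and 6. The groups overlapped, with the highest and the lowest value both in ctrl, and the log2 fold change was 0.07 ± 0.17 (SE; edgeR, adjusted p = 0.929). The ATR gene mei-41 (FBgn0004367, X:16391698-16399850, plus strand) measured 28.1, 30.9 and 25.1 CPM in CIN 4, 5 and 6, against 33.1, 24.4 and 26.7 CPM in ctrl 4, 5 and 6. Here too ctrl held both extremes. Its log2 fold change of -0.0019 ± 0.16 (edgeR, adjusted p = 0.999) was the nearest to 0 of the 9, with a 95% interval of -0.38 to 0.37. Per kilobase, tefu stood 2.07, 1.66 and 1.93 times above mei-41 in CIN 4, 5 and 6 and 1.87, 1.94 and 1.54 times above it in ctrl 4, 5 and 6, and these ratios overlapped between genotypes.

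Of the effector kinases, lok (FBgn0019686, 2L:20061422-20064381, plus strand) measured 38.5, 25.1 and 33.9 CPM in CIN 4, 5 and 6, against 45.0, 23.4 and 32.3 CPM in ctrl 4, 5 and 6. In both genotypes batch 4 was highest and batch 5 lowest, and the genotypes overlapped (log2 fold change -0.05 ± 0.27, SE; edgeR, adjusted p = 0.973). The Chk1 gene grp (FBgn0261278, 2L:16680054-16699926, plus strand) measured 207, 269 and 268 CPM in CIN 4, 5 and 6, against 238, 265 and 252 CPM in ctrl 4, 5 and 6. It ran against lok, with batch 4 lowest in both genotypes, and its log2 fold change was -0.02 ± 0.14 (edgeR, adjusted p = 0.977). The ratio of grp to lok per kilobase therefore followed the batch, at 4.31, 8.57 and 6.34 in CIN 4, 5 and 6 and 4.24, 9.04 and 6.25 in ctrl 4, 5 and 6. Its means were 6.41 ± 2.14 in CIN and 6.51 ± 2.41 in ctrl (SD, n = 3).

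In the end-binding complex, mre11 (FBgn0020270, 2L:11282090-11284335, plus strand) measured 51.5, 54.3 and 51.7 CPM in CIN 4, 5 and 6, against 58.0, 51.0 and 38.1 CPM in ctrl 4, 5 and 6. The 3 CIN libraries lay close together inside the wider ctrl range (log2 fold change 0.10 ± 0.16, SE; edgeR, adjusted p = 0.887). The ATPase gene rad50 (FBgn0034728, 2R:22421013-22425482, plus strand) measured 68.9, 55.6 and 58.9 CPM in CIN 4, 5 and 6, against 76.1, 56.2 and 50.5 CPM in ctrl 4, 5 and 6. Ctrl 4 was the highest library and ctrl 6 the lowest, and the log2 fold change was 0.0043 ± 0.18 (edgeR, adjusted p = 0.998). The gene of the adaptor subunit, nbs (FBgn0261530, 3L:9720414-9723194, minus strand), measured 34.6, 23.5 and 30.2 CPM in CIN 4, 5 and 6, against 35.9, 17.3 and 27.3 CPM in ctrl 4, 5 and 6. As with lok, batch 4 was highest and batch 5 lowest in both genotypes, and nbs had the widest range over the 6 libraries, 2.07-fold. Its log2 fold change was 0.13 ± 0.28 (edgeR, adjusted p = 0.917).

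The 3 subunit transcripts were not in a fixed proportion. Per kilobase, mre11 stood 1.51, 1.97 and 1.78 times above rad50 in CIN 4, 5 and 6 and 1.54, 1.84 and 1.53 times above it in ctrl 4, 5 and 6. The ratio of mre11 to nbs varied more, at 1.93, 2.99 and 2.21 in CIN 4, 5 and 6 and 2.09, 3.80 and 1.80 in ctrl 4, 5 and 6. The steadiest of all 36 ratios between members was that of tefu to rad50, with a range of 0.418 to 0.475 over the 6 libraries and no separation of the genotypes.

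Of the Ku genes, Ku80 (FBgn0041627, 2L:15768630-15771159, minus strand) was the least variable member, at 25.5, 25.2 and 23.1 CPM in CIN 4, 5 and 6, against 28.7, 23.6 and 23.7 CPM in ctrl 4, 5 and 6. Its log2 fold change was -0.04 ± 0.13 (SE; edgeR, adjusted p = 0.953). The Ku70 gene Irbp (FBgn0011774, 3R:11410047-11412440, plus strand) measured 22.9, 19.8 and 19.2 CPM in CIN 4, 5 and 6, against 20.5, 14.2 and 16.4 CPM in ctrl 4, 5 and 6. Only ctrl 4 reached the CIN values, and CIN was above ctrl within each of the 3 batches, as it was for 17.5% of all tested genes. Irbp had the most positive log2 fold change of the 9, 0.28 ± 0.18, and did not pass (edgeR, adjusted p = 0.716, 95% interval -0.15 to 0.70).

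The Ku genes were set against each other within each library, which removes any scaling. Per kilobase, the ratio of Ku80 to Irbp was 1.04, 1.19 and 1.12 in CIN 4, 5 and 6, against 1.30, 1.55 and 1.35 in ctrl 4, 5 and 6. The means were 1.12 ± 0.0754 in CIN and 1.40 ± 0.135 in ctrl (SD, n = 3), and the genotypes did not overlap. Any ratio that does not overlap between 3 and 3 libraries has a two-sided exact permutation p of 0.1, the smallest this design allows, so the p adds nothing to the separation. Of the 36 ratios between members 4 separated the genotypes, or 11.1%, and 3 of the 4 involved Irbp. The 36 ratios share genes and are not independent. The groups were apart for 15.3% of all tested genes, but that share is for single-gene levels. Ratios between genes outside the members were not computed. The ratio was singled out after its values were seen and is given as a description.

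**Figure D3:**
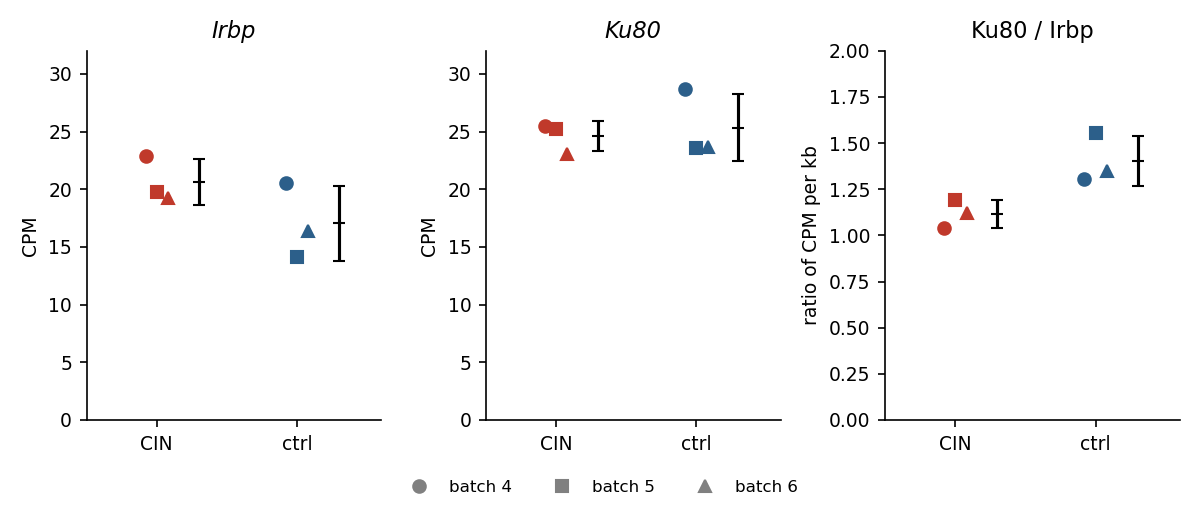
CPM of Irbp and of Ku80 and the ratio of their CPM per kilobase in each library, with CIN left of ctrl, symbols for the batch and bars for the mean ± SD of 3 libraries. The CIN ratios of 1.04 to 1.19 lie below the ctrl ratios of 1.30 to 1.55, while the levels of each gene overlap between the genotypes.

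Within 20000 bases of the 9 genes lay 2 genes that passed the test, each farther off than other tested genes that did not pass. Of all tested genes 0.0993% passed, and whether 2 is many among the neighbours was not tested. Irbp lies 2419 bases from pros, which encodes a homeodomain factor of neuroblast daughter cells. That gene fell to 989 ± 279 CPM in CIN, against 4506 ± 326 CPM in ctrl (SD, n = 3; log2 fold change -2.19 ± 0.22, SE; edgeR, adjusted p = 0.0422). The ATM gene tefu lies 18553 bases from CG6654, which rose to 57.8 ± 2.45 CPM in CIN, against 21.0 ± 1.92 CPM in ctrl (log2 fold change 1.46 ± 0.12; edgeR, adjusted p = 0.0169). With the batch as a replicate block neither was called, at log2 fold changes of -2.22 for pros and 1.46 for CG6654 (edgeR, adjusted p = 0.162 and 0.118). Leaving out any 1 of the 6 libraries also ended the call of CG6654 (log2 fold change 1.39 to 1.52; edgeR, adjusted p = 0.0612 to 0.26). The call of pros held without CIN 5 (edgeR, adjusted p = 0.0231) and was lost without any other single library (adjusted p = 0.0612 to 0.33), with log2 fold changes of -2.44 to -2.03 over the 6 fits.

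For each of the 9 genes the batch held a larger share of the sum of squares of log2 CPM over the 6 libraries than the genotype did, as it did for 67.9% of all tested genes. The batch share was 95.1% for lok, 86.0% for nbs, 85.5% for rad50 and 82.8% for tefu, beside genotype shares of 0.079%, 6.08%, 0.264% and 5.06% for these genes. Irbp had the largest genotype share of the 9, at 40.6%. The batch has 2 degrees of freedom and the genotype 1. A test of the batch term in edgeR, chosen after seeing the data, called 0 of the 9 members and 0.0% of all tested genes (lowest adjusted p over all genes 0.335). At an unadjusted p under 0.05 it held 2 members, lok and nbs, and 9.69% of all tested genes. For 8 of the 9 genes, all except grp, the mean of the batch's libraries was highest in batch 4.

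Within a batch most members lay on the same side of 0, but not the same side in each batch. In batch 4, CIN was below ctrl for 8 of the 9 genes, all but Irbp, with a median log2 difference of -0.17. In batch 5 it was above ctrl for 8 of the 9, all but rad50, with a median of 0.096. In batch 6 it was above ctrl for 7 of the 9, all but mei-41 and Ku80, with a median of 0.14. The corresponding medians over all tested genes were -0.00014, -0.012 and -0.0060. Each batch difference rests on 1 library per genotype and has no replicate check. Ctrl 4 held the highest value of the 6 libraries for 7 members, while ctrl 5 held the lowest for 4 and ctrl 6 for 3. Without ctrl 4 the median log2 fold change of the members was 0.22, against 0.0043 with all libraries, and 0 members were called. Without both ctrl 4 and CIN 5, the libraries with few ring gland transcripts, it was 0.26, again with 0 members called. The ring gland sums were 3643 CPM in CIN 4 and 2.01 CPM in ctrl 4. In batch 5 the order was the reverse, at 6.02 CPM in CIN 5 and 2585 CPM in ctrl 5. In batch 6 these sums were 1129 CPM in CIN 6 and 1215 CPM in ctrl 6. The sums of the DNA replication list were 1674 CPM in CIN 4 and 2438 CPM in ctrl 4. The neuroblast markers had a median log2 difference of -0.92 in batch 4. Among them mira, which encodes an adaptor of asymmetric division, measured 102 CPM in CIN 4 and 319 CPM in ctrl 4. The markers did not all differ this much, with brat at 1269 and 1395 CPM in CIN 4 and ctrl 4. The marker erm went the other way, at 64.6 and 60.9 CPM. The part of the ring gland, replication and neuroblast transcripts in the batch differences was not tested.

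**Figure D4:**
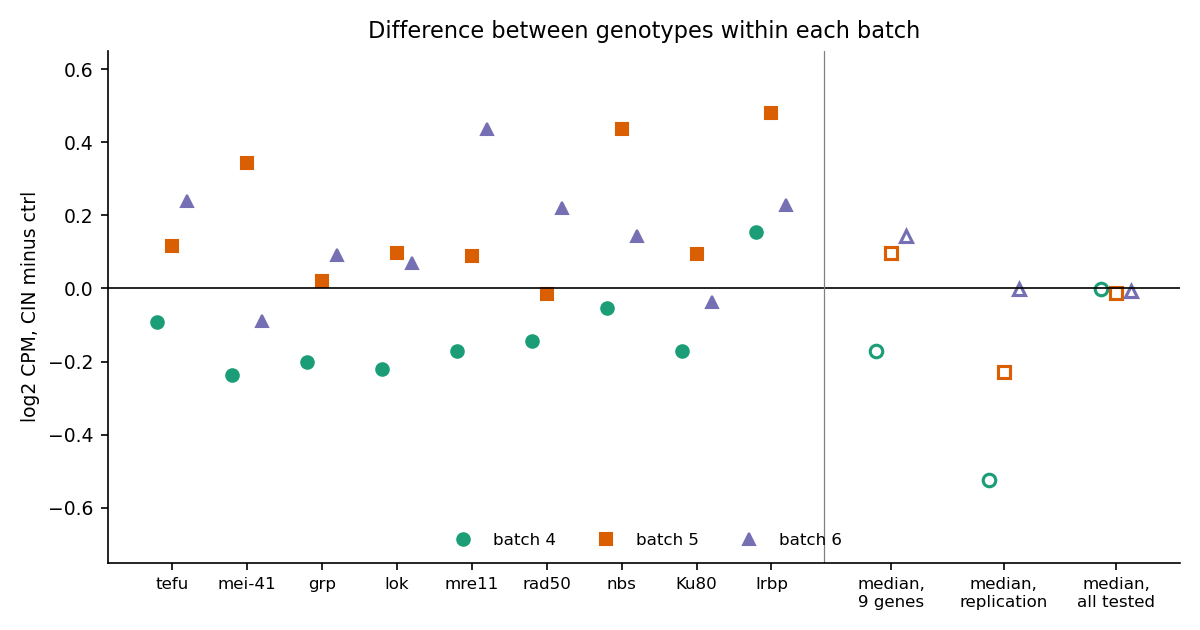
Log2 CPM of CIN minus ctrl within batches 4, 5 and 6 for each of the 9 genes (filled symbols) and medians of the 9 genes, of 32 DNA replication genes and of all tested genes (open symbols). In batch 4, 8 of the 9 genes lie below 0, while 8 of the 9 lie above it in batch 5 and 7 of the 9 in batch 6.

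The profile of the 9 genes over the 6 libraries, as the mean of their standardised log2 CPM, was 0.36, 0.065 and -0.072 in CIN 4, 5 and 6 and 1.06, -0.73 and -0.68 in ctrl 4, 5 and 6. Among 7138 other tested genes with a mean of at least 10 CPM, the 5 most like it were CG42258, cana, Nrg, CG7110 and Apc2, with Pearson's r of 0.995, 0.971, 0.970, 0.964 and 0.956 over the 6 libraries. Of these, cana encodes a kinesin of the CENP-E kind, Nrg the cell adhesion protein neuroglian and Apc2 a homolog of the adenomatous polyposis coli protein. The profile shares its libraries with these genes, 48 genes had r above 0.9, and likeness over 6 libraries is given as a description only.

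Around the 9 genes, the rest of the pathway was examined through lists of named partners. For comparison with the signs in each list, 5170 of all 10074 tested genes were positive and 4904 negative. Of 13 tested checkpoint partners, 0 rose and 0 fell, with 10 negative log2 fold changes and a median of -0.11. Among them His2Av, the H2A variant phosphorylated at breaks, measured 552 ± 59.6 CPM in CIN and 630 ± 127 CPM in ctrl (SD, n = 3). The phosphatase gene stg, the Cdc25 that Chk1 restrains, measured 121 ± 15.1 CPM in CIN and 163 ± 39.4 CPM in ctrl (log2 fold change -0.43 ± 0.19, SE; edgeR, adjusted p = 0.637), and the log2 fold change was -0.23 without ctrl 4. Of 15 tested homologous recombination genes, 0 rose and 0 fell, with 13 negative and a median of -0.14. In that list RPA1, the large subunit of the single-strand binding protein, measured 150, 163 and 163 CPM in CIN 4, 5 and 6, against 149, 126 and 134 CPM in ctrl 4, 5 and 6 (log2 fold change 0.22 ± 0.11; edgeR, adjusted p = 0.669). The groups of RPA1 did not overlap, with CIN higher, as for 715 of all 10074 tested genes. In its list 2 of the 15 genes were apart in that direction and 0 with CIN lower. Of the 13 checkpoint partners 2 were apart with CIN lower, as for 824 of all tested genes, and 0 with CIN higher. The topoisomerase gene Top3alpha measured 35.4 ± 3.92 CPM in CIN and 37.5 ± 9.28 CPM in ctrl.

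The 6 genes for end joining and strand-break ligation had 6 positive log2 fold changes and a median of 0.11, and 0 passed. Their DNAlig3, a DNA ligase, measured 39.8, 49.8 and 41.6 CPM in CIN 4, 5 and 6, against 28.0, 39.4 and 33.2 CPM in ctrl 4, 5 and 6. Its groups did not overlap, as for 15.3% of all tested genes. The log2 fold change of DNAlig3, 0.38 ± 0.16 (SE), did not pass (edgeR, adjusted p = 0.627). Parp1, the break-sensing ADP-ribose polymerase, measured 106 ± 6.71 CPM in CIN and 99.3 ± 5.05 CPM in ctrl (SD, n = 3). Of 13 crosslink and excision repair genes 0 passed, with 7 negative and a median of -0.07. The CPM ranges were apart with CIN lower for 1 of the 13 and for 824 of all 10074 tested genes. The excision repair genes Xpc and hay had log2 fold changes of 0.05 ± 0.17 and 0.01 ± 0.15, and Fancd2, a gene of the Fanconi crosslink pathway, had -0.33 ± 0.18 (edgeR, adjusted p = 0.690), with -0.19 without CIN 4 and -0.52 without CIN 5.

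Of 8 genes known to respond to damage or stress, 1 rose and 7 did not pass, while 0.0496% of all tested genes rose. The median log2 fold change was 0.14, with 6 positive, 2 negative and a lowest value of -0.71. At an unadjusted p under 0.05, 1 gene was lower, as were 379 of all 10074 tested genes. The CPM ranges of 1 gene were apart with CIN lower, as for 824 of all tested genes. The gene that rose was Gadd45, a stress-inducible gene. It measured 26.9, 22.8 and 20.1 CPM in CIN 4, 5 and 6, against 4.87, 7.22 and 5.77 CPM in ctrl 4, 5 and 6. Its groups stood well apart, with a log2 fold change of 1.97 ± 0.21 (SE; edgeR, adjusted p = 0.0436; DESeq2, adjusted p = 1.06e-13). The call was lost with the batch as a replicate block (edgeR, adjusted p = 0.196) and without any 1 library (edgeR, adjusted p = 0.113 to 0.41), while its log2 fold change stayed between 1.84 and 2.13. The list was drawn up with the rise of Gadd45 already known, so it is no independent evidence.

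The 32 DNA replication genes, which like the repair genes are used by dividing cells, had 32 negative log2 fold changes. Their median was -0.26, with 0 calls and 5 lower at an unadjusted p under 0.05. Over all 10074 tested genes, 4904 were negative and 379 lower at that p. The CPM ranges were apart with CIN lower for 6 of the 32 and for 824 of all tested genes. Mcm7, a subunit of the replicative helicase, measured 27.7 ± 3.38 CPM in CIN and 38.3 ± 6.27 CPM in ctrl (SD, n = 3; edgeR, adjusted p = 0.603). Its groups did not overlap, with CIN lower. The clamp gene PCNA and the ribonucleotide reductase gene RnrL had log2 fold changes of -0.22 ± 0.18 and -0.20 ± 0.15 (SE), with -0.096 and -0.11 without ctrl 4 and -0.38 and -0.34 without CIN 6. Within batches 4, 5 and 6 the replication list had median log2 differences of -0.53, -0.23 and -0.00019, beside -0.17, 0.096 and 0.14 for the 9 checkpoint and repair genes. The neuroblast markers had medians of -0.92, -0.16 and -0.024 in these batches, and their part in the replication values was not tested. In each batch the median of the 9 genes lay above that of the replication genes, and the difference between the lists was not tested.

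**Figure D5:**
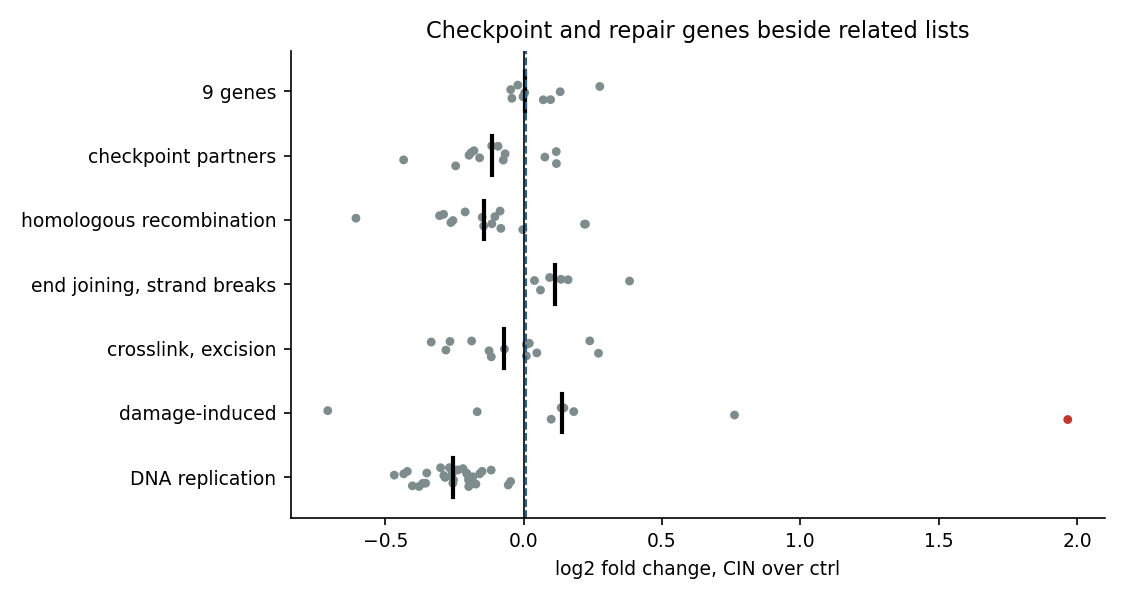
Log2 fold change of CIN over ctrl for each tested gene of the 9 checkpoint and repair genes and of 6 related lists (points, red where called by edgeR), with black bars at list medians and a dashed line at the median of all tested genes. Only Gadd45, at 1.97 in the damage-induced list, is red, and the list medians run from -0.26 for DNA replication to 0.14 for damage-induced genes.

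Counting error was small beside the median spread between pools, but no gene-by-gene comparison was made. Some spreads were narrow, as for mre11 in CIN (52.5 ± 1.55 CPM, SD, n = 3) and Ku80 in CIN (24.6 ± 1.33 CPM). The lowest count of a member was 349 (Irbp in ctrl 5) and the highest 7312 (grp in CIN 6), which correspond to counting errors of 5.35% and 1.17%. The median within-group SD of the members was 0.22 on the log2 scale, against 0.24 for all tested genes. The library kit does not mark strand, so reads in regions shared with another gene cannot be assigned. Exons of lok share 121 bases with vls on the opposite strand, which had 4656 counts over the 6 libraries beside 5047 for lok. Exons of nbs share 51 bases with CG14174, and those of grp share 223 bases with squ on the same strand and 143 with asRNA:CR44975. The overlaps of mei-41 with CG9981 (69 bases) and of mre11 with Osi21 (9 bases) involve genes with 31 and 21 counts over the 6 libraries. The exons of tefu, rad50, Ku80 and Irbp share no base with another annotated gene.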

How the data were processed

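The authors deposited whole-number counts per gene, 1 column per library, for 14150 genes. Trim Galore, STAR 2.7.10a, featureCounts and the build dm6 are named in the submitters' processing notes. No source used here gives their settings, the treatment of reads with several matches or the release of the annotation. Poly(A) RNA and the NEBNext Ultra II RNA kit were used, per the labels' protocols.

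The members and lists were chosen with earlier results of these data known. Of the 10 members, 1 is not reported here and enters no count or median of the members, though it stays in the fit. Counts were fitted by genotype alone in edgeR 4.0.16 (R 4.3.3) with TMM, its filterByExpr filter and a quasi-likelihood test, adjusted by Benjamini-Hochberg over all 10074 tested genes. Levels are CPM on TMM-scaled library sizes, log2 CPM adds a prior count of 2, and CPM per kilobase uses the union of exons of Ensembl release 115. Standard errors are the log2 fold change divided by the root of F. The scripts were tested on simulated data. DESeq2 1.42.0, limma 3.58.1 (voom), other normalisations and filters, a batch block and leaving out libraries were alternatives. Each list names its called genes, or else the 2 most abundant and the 1 with the smallest p. The list symbols Rad1, Tipin, mus312, RPA2, RPA3 and nvd were not used here.

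The labels give the number of each library as its batch. The main fit left the batch out, so its p-values ignore this pairing. An alternative fit used the batch as a replicate block and called 0 genes. The deviations of same-numbered libraries correlated at 0.038, -0.062 and 0.17 for batches 4, 5 and 6. The series' design places replicates on different days. Whether the pools of a batch shared a culture is not stated, and p-values measure the spread between pools.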

Additional observations from a re-analysis of the deposited data

How the results depend on the processing

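None of the 9 checkpoint and repair genes was called under any of 14 alternatives, with a lowest adjusted p of 0.609. The members' log2 fold changes kept their sign in 101 of 126 such fits, and the 25 that changed sign had sizes of at most 0.38. The member median was 0.0043, -0.054 to 0.22 without 1 library and 0.26 without both ctrl 4 and CIN 5. Irbp stayed positive, at 0.16 to 0.43 without 1 library, and the log2 ratio of Ku80 to Irbp stayed lower in CIN, with differences of -0.38 to -0.25 without 1 library.

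Over all genes, edgeR called 5 higher and 5 lower. The filter of 1 CPM in 3 libraries gave 10 lower, and DESeq2 gave 61 higher and 62 lower. With the batch as a replicate block edgeR called 0 higher and 0 lower (lowest adjusted p 0.0557), while at an unadjusted p under 0.05 it held 473 higher and 401 lower. The block changed the calls of Gadd45, pros and CG6654 and of no member. Without 1 library edgeR called 0 higher in each fit, with 261 to 551 higher at an unadjusted p under 0.05, and 1 to 3 lower. Without both ctrl 4 and CIN 5 there were 4 higher and 3 lower. The cause of these shifts was not tested.

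The uncalled log2 fold change of mei-41 turned positive with RLE (0.0038), without TMM (0.032), with the 1 CPM filter (0.0018), in DESeq2 (0.0010) and voom (0.0034), with the replicate block (0.0045) and without both ctrl 4 and CIN 5 (0.055). That of grp was 0.024 without TMM. Without both ctrl 4 and CIN 5 the sign also turned for lok (0.38), Ku80 (0.036), Top3alpha (0.079), Xpc (-0.080), hay (-0.11) and PCNA (0.0036). Leaving out 1 library gave -0.054 to 0.25 for tefu, -0.095 to 0.13 for mei-41, -0.093 to 0.091 for grp, -0.25 to 0.22 for lok, -0.055 to 0.23 for mre11 and -0.11 to 0.19 for rad50. It gave -0.10 to 0.40 for nbs, -0.092 to 0.055 for Ku80, -0.26 to 0.0996 for Top3alpha, -0.14 to 0.18 for Xpc and -0.10 to 0.11 for hay. Among genes whose sign held in each of these 6 fits, the range was -0.57 to -0.23 for stg, -0.52 to -0.19 for Fancd2, -0.38 to -0.096 for PCNA, -0.34 to -0.11 for RnrL and -0.34 to -0.050 for His2Av. With the longest transcript as length grp was at 97.5 CPM per kb, against 82.0 with the exon union, and stayed the highest.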
